A study of Mus musculus with 19 samples.

Results

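Liver expression was examined for 10 genes that build triglyceride or load it onto very-low-density lipoprotein (VLDL), namely Mogat1, Gpam, Agpat2, Lpin1, Lpin2, Lpin3, Dgat1, Dgat2, Mttp and Tm6sf2. They were taken by symbol from the 54838 genes of the deposited table, each symbol occurred once, and all 10 were among the 14743 genes tested. Male C57BL/6JOlaHsd mice, 4 weeks old at the start, received a normal diet (ND) or a Western diet (WD, called high fat diet or HFD in the labels) for 4 months. The WD was rich in fat, with sucrose, fructose and cholesterol added and choline reduced. Micro-osmotic pumps delivered saline or AN1284, an indoline derivative, at 1 or 5 mg/kg/day for 8 weeks. The labels can be read as placing those weeks after the 4 months of diet, whereas the methods of the study place them in its last 2 months. The groups were ND saline, ND AN1284 1 mg and ND AN1284 5 mg with 3 livers each, WD saline with 3, WD AN1284 1 mg with 4 and WD AN1284 5 mg with 3. Stranded libraries from poly-A selected liver RNA were sequenced. The labels call the libraries of a group replicates, so the p-values measure the spread between these libraries.

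The liver makes triglyceride mainly by the glycerol phosphate pathway. Gpam encodes the mitochondrial glycerol-3-phosphate acyltransferase GPAT1, which adds the first fatty acid, and Agpat2 encodes an enzyme that adds the next, giving phosphatidate. The lipins Lpin1, Lpin2 and Lpin3 remove the phosphate to give diacylglycerol, and Dgat1 and Dgat2 add the last fatty acid. Mogat1 encodes a monoacylglycerol acyltransferase, which reaches diacylglycerol by another route. Mttp encodes the large subunit of the microsomal triglyceride transfer protein, which loads lipid onto nascent apolipoprotein B, and Tm6sf2 is needed for full lipidation of VLDL in mice and humans.

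Counted reads ran from 23326800 to 32596067 per library. Values are counts that the authors divided by library size factors (normalized counts), and fold changes are differences of log2(normalized count + 1) with their standard error (SE). They come from a limma model of all 6 groups, with p-values adjusted over the 14743 genes (Benjamini-Hochberg). A gene passed where its adjusted p was under 0.05. Size factors were 0.7592 to 0.7908 in ND saline and 1.0304 to 1.2679 in WD saline. Rescaling to total counts raised the median of all genes on the WD from 0.01 to 0.44 on the log2 scale. All 10 hepatocyte markers were measured and above 0, while the 2 of 7 muscle and pancreas genes with a value summed to 0.9 to 13.2. The summed hepatocyte markers were 3371774 to 3595893 in ND saline, 1310085 to 1715929 in WD saline, 2144730 to 2445337 in WD AN1284 1 mg and 1681310 to 2342410 in WD AN1284 5 mg. All 10 fell on the WD, and all 10 macrophage, 8 of 10 stellate cell, 6 of 7 endothelial and 3 of 7 cholangiocyte markers rose. In bulk tissue, fewer cells of a type and less RNA per cell cannot be told apart, and the part of these shifts in the results was not tested. The ND saline livers stood apart in 8 heat shock genes, whose summed normalized counts were 52695 to 59542 there and 23013 to 37879 in all other livers.

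Promoters are shown for 4 genes that the results turn on, Mogat1 and Gpam, which rose most on the WD, and Lpin1 and Lpin2, which fell on the WD and, on the ND, with AN1284 1 mg. The sequences are RefSeq windows (GRCm38.p6) from 250 bases before to 50 bases after a transcript start, 5′ to 3′ on the strand of the gene. RefSeq windows were found for 7 of the 10 genes, 11 windows in all, and Dgat1, Dgat2 and Tm6sf2 are only named here. Capitals mark CACGTG (an E-box), AGGTCA (a core of nuclear receptor elements) or the heat shock element units GAANNTTC and TTCNNGAA, searched on both strands. Among 32851 windows of 300 bases, 7.2% held CACGTG, 16.3% AGGTCA, 7.9% GAANNTTC and 8.5% TTCNNGAA.
Mogat1, chr1:78510810-78511109, plus strand: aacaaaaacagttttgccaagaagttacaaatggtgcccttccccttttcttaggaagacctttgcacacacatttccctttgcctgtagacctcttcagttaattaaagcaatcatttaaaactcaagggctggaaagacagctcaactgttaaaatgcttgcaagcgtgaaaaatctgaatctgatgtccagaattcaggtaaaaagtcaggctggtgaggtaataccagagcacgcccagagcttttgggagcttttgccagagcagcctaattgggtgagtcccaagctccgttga
Gpam, chr19:55099428-55099727, minus strand: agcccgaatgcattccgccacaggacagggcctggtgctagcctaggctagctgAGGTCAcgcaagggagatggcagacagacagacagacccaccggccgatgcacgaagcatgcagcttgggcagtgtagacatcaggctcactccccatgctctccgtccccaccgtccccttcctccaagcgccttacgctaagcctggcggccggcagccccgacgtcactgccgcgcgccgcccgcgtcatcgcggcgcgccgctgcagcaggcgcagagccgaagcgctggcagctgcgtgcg
Lpin1, chr12:16610917-16611216, minus strand: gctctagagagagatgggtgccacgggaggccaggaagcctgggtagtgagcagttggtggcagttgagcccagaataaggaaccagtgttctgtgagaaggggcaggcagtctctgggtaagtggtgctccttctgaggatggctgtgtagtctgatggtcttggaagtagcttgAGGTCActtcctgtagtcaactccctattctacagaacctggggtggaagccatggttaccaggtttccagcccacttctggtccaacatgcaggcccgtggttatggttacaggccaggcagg
Lpin2, chr17:71183282-71183581, plus strand: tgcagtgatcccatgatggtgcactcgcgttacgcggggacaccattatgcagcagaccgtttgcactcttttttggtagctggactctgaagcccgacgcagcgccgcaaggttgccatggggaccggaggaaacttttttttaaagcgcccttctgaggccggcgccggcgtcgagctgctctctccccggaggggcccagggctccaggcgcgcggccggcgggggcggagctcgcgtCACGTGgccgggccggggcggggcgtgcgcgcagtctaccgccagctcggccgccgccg
The Mogat1 window held none of the 4 motifs. Gpam held AGGTCA at bases 55 to 60 of the window shown, Lpin1 held AGGTCA at bases 177 to 182, and Lpin2 held CACGTG at bases 242 to 247. Of the windows not shown, those of Lpin3 held CACGTG in the first and TTCTCGAA in the second, that of Mttp held GAAACTTC, and those of Agpat2, the other Gpam window and the other 2 of Lpin2 held none. These matches are descriptions of the letters, and none was tested for binding.

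Levels were put on a scale of normalized counts per kb of exon, for a rough comparison between genes. The length was that of all GENCODE exons of a gene joined, which may not be the annotation used for counting. For Gpam the GENCODE gene spans 55067268 to 55127238, against 55069734 to 55099451 in the deposited table. On this scale Dgat2 and Agpat2 were the highest of the 10 in ND saline, at 3917 ± 476 and 3853 ± 127 (SD, n = 3). Lpin1 followed at 1932 ± 565, Mttp at 1545 ± 205, Lpin2 at 1051 ± 143, Gpam at 547 ± 289 and Tm6sf2 at 512 ± 86.9. Dgat1 at 155 ± 9.66, Lpin3 at 27.3 ± 0.556 and Mogat1 at 13.5 ± 1.49 were the lowest. Dgat2 and Agpat2, Lpin1 and Mttp, and Gpam and Tm6sf2 differed by less than the larger SD of each pair. In WD saline Gpam reached 1769 ± 412, beside Mttp at 1728 ± 178, Lpin1 lay at 300.4 ± 112 and Mogat1 at 142 ± 17.0 (SD, n = 3).

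WD saline was compared with ND saline to ask what the diet did. The WD raised the entry enzymes Mogat1 and Gpam and the minor lipin Lpin3, and it lowered Lpin1, Tm6sf2, Lpin2, Agpat2 and Dgat2. Dgat1 and Mttp did not pass. Thus 8 of the 10 genes passed, 3 higher and 5 lower, where 53% of all tested genes passed, 28.1% higher and 25% lower. The livers of the 2 groups did not overlap in 8 of the 10, where 60.5% of all tested genes had no overlap. Scaling to total counts gave 4 higher and 2 lower of the 10 and, over all tested genes, 7581 higher and 1350 lower in place of 4136 and 3684.

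**Figure D1:**
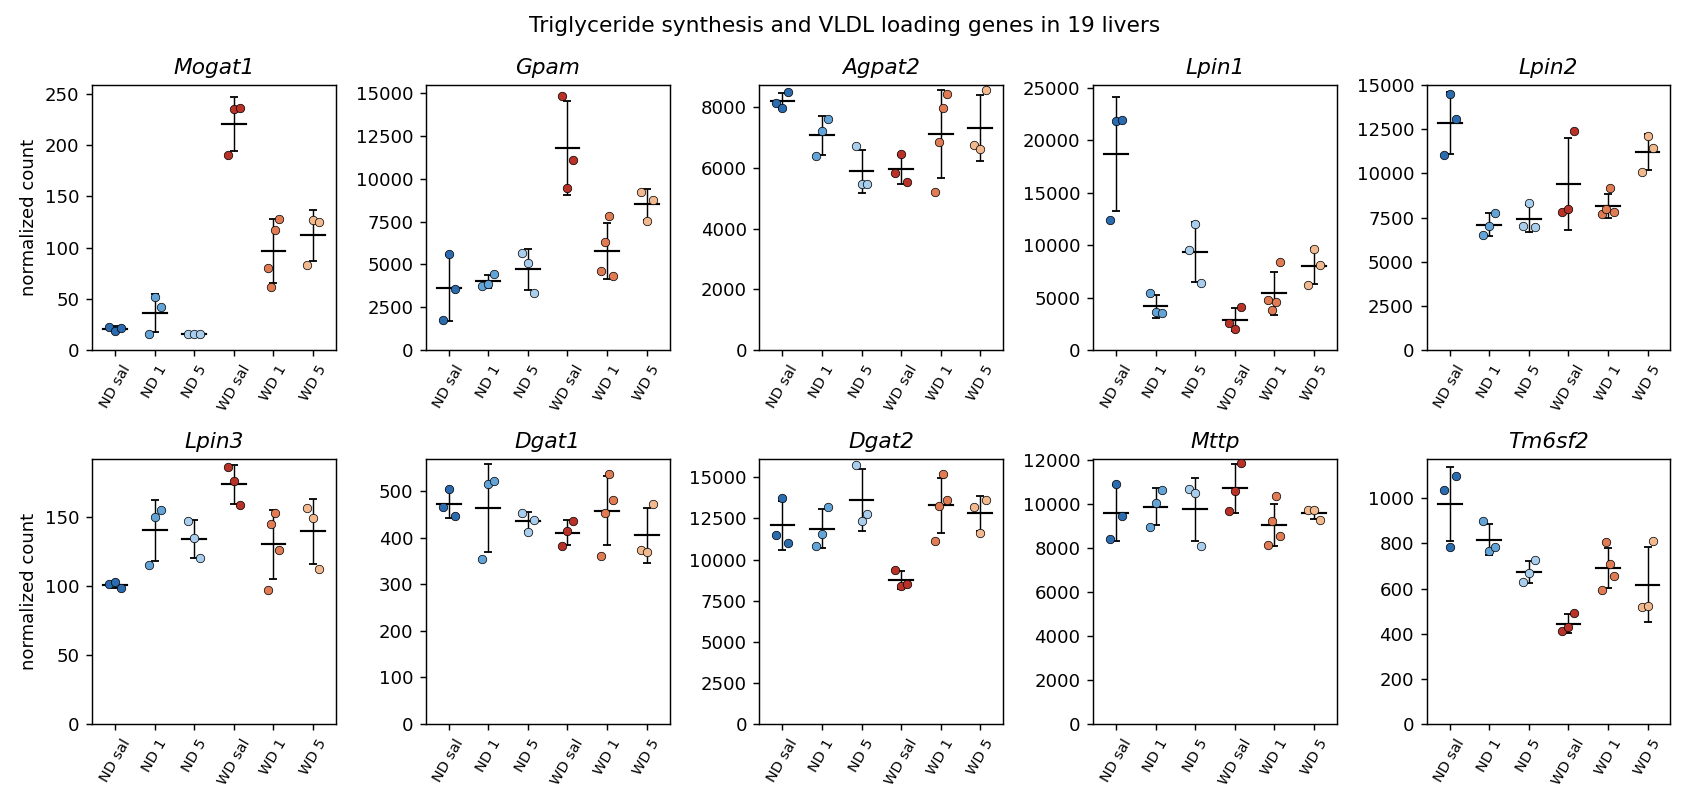
Normalized counts (y axes, linear, from 0) of the 10 genes in 19 livers by diet and treatment (x axes: ND or WD with saline, AN1284 1 mg or 5 mg), 1 point per liver, with the mean and SD of each group as bars. Mogat1 lies at 190.2 to 236.6 in WD saline and at 15.6 to 52.0 in the ND livers, and Lpin1 is highest in ND saline.

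Mogat1 (ENSMUSG00000012187, GRCm38 chromosome 1, 78510991 to 78538173, plus strand) had normalized counts of 23.0, 18.4 and 21.5 in ND saline. In WD saline they were 190.2, 235.6 and 236.6. All WD livers were above all ND livers, and the log2 fold change was 3.33 ± 0.34 (SE; limma adjusted p = 5.42e-07). Mogat1 was the gene with the lowest counts of the 10 on the ND.

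Gpam (ENSMUSG00000024978, chromosome 19, 55069734 to 55099451, minus strand) had 1780, 5627 and 3537 normalized counts in ND saline and 14813, 9451 and 11102 in WD saline. The groups did not overlap, though the ND saline livers spread over a CV of 52.8%. Its log2 fold change was 1.82 ± 0.32 (adjusted p = 0.000193).

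Agpat2 (ENSMUSG00000026922, chromosome 2, 26593057 to 26604417, minus strand) had 8134, 7983 and 8506 normalized counts in ND saline against 5832, 6461 and 5551 in WD saline. The fall of 0.47 ± 0.15 on the log2 scale (adjusted p = 0.0156) left no WD saline liver within the ND saline range. With total-count scaling the difference was -0.03 (adjusted p = 0.84), and without WD saline replicate 3 the adjusted p was 0.0582.

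Among the lipins, Lpin1 (ENSMUSG00000020593, chromosome 12, 16535669 to 16610966, minus strand) encodes an enzyme that also works as a nuclear coactivator of fatty acid oxidation genes. Its normalized counts were 12370, 21787 and 21865 in ND saline and 2540, 2051 and 4120 in WD saline, with no overlap. Its log2 fold change of -2.70 ± 0.32 (adjusted p = 5.71e-06) was the deepest fall of the 10 genes. Lpin2 (ENSMUSG00000024052, chromosome 17, 71182560 to 71249817, plus strand), a lipin abundant in liver, had 11017, 14491 and 13064 against 7809, 7994 and 12396. WD saline replicate 3 lay inside the ND saline range. The fall of 0.48 ± 0.15 on the log2 scale (adjusted p = 0.015) did not pass with total-count scaling (-0.04, adjusted p = 0.823), with these 2 groups fitted alone (adjusted p = 0.0569), or without ND saline replicate 2 (0.0669), WD saline replicate 1 (0.0867) or WD saline replicate 2 (0.0745). Lpin3 (ENSMUSG00000027412, chromosome 2, 160880670 to 160906002, plus strand) went the other way, with 100.9, 102.7 and 98.6 against 186.3, 175.5 and 158.5. The groups did not overlap, and its log2 fold change was 0.77 ± 0.18 (adjusted p = 0.00153).

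The last step is carried out by the enzymes of Dgat2 and Dgat1. Dgat2 (ENSMUSG00000030747, chromosome 7, 99153658 to 99182719, minus strand), whose enzyme uses mainly newly made fatty acids, had 11476, 13752 and 11005 normalized counts in ND saline and 9394, 8363 and 8536 in WD saline. All WD saline livers were lower, and the log2 fold change was -0.46 ± 0.13 (adjusted p = 0.00716), but -0.02 with total-count scaling (adjusted p = 0.877). Dgat1 (ENSMUSG00000022555, chromosome 15, 76502015 to 76511953, minus strand), which re-esterifies incoming fatty acids, had 466, 504 and 446 against 382, 414 and 437. All WD saline livers were lower, yet its difference of -0.20 ± 0.15 did not pass (adjusted p = 0.281) and was 0.23 with total-count scaling.

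Of the loading genes, Mttp (ENSMUSG00000028158, chromosome 3, 138089854 to 138144968, minus strand) had 8401, 10932 and 9438 normalized counts in ND saline and 9674, 10616 and 11879 in WD saline. The ranges overlapped, and the difference of 0.16 ± 0.13 on the log2 scale did not pass (adjusted p = 0.297), whereas total-count scaling gave 0.60 (adjusted p = 0.00069). Tm6sf2 (ENSMUSG00000036151, chromosome 8, 70072924 to 70080066, plus strand) had 1037, 786 and 1098 against 412, 428 and 492. No WD saline liver came near the ND saline range, and Tm6sf2 fell by 1.12 ± 0.16 on the log2 scale (adjusted p = 2.4e-05). This call held in every alternative run, all of which used ND saline livers. Between WD and ND livers given 1 or 5 mg, its log2 fold changes were -0.25 and -0.16, and neither passed.

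Some of these genes share bases with neighbours, and the strand setting of the counting is not given in the sources used here. Mogat1 overlaps BC035947 on the opposite strand by 1168 bases, Mttp overlaps Trmt10a by 1521, and Agpat2 overlaps Egfl7 by 64. Their mean normalized counts were 6.39 for BC035947, 113 for Trmt10a and 269 for Egfl7. Agpat2 also lies within Gm20532 on the opposite strand (11361 bases shared), which had no normalized value. Mttp shares 10802 bases with Gm43691 and Lpin3 shares 7359 with Gm16751, both on the opposite strand, with means of 2.61 and 3.35. Lpin2 lies within Gm26561, a noncoding RNA of the same strand that had no normalized value.

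**Figure D2:**
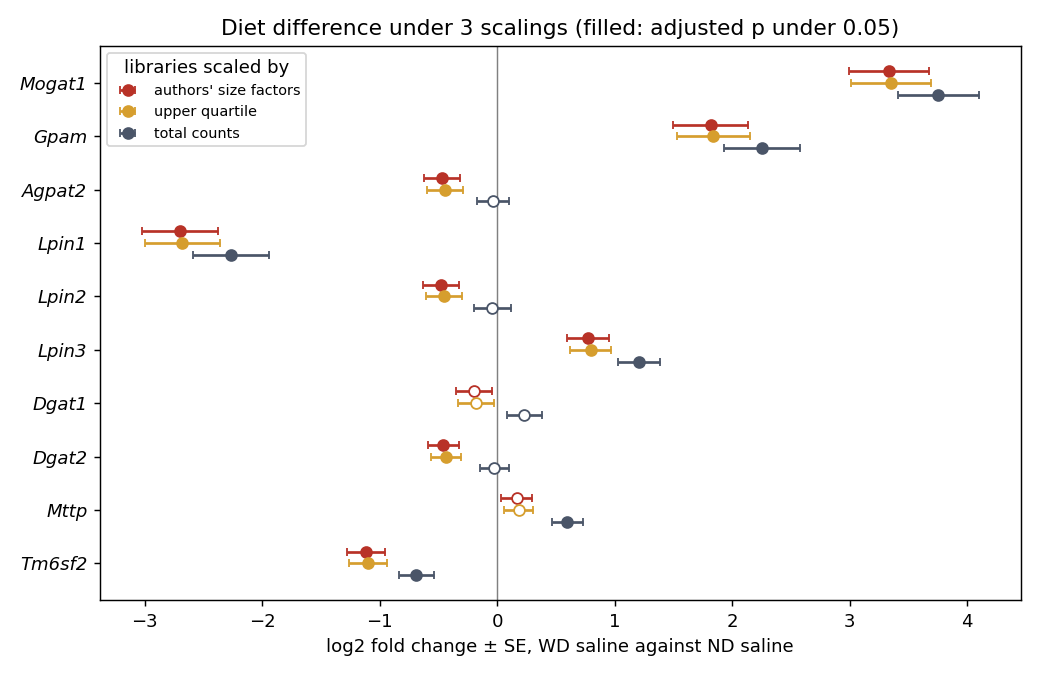
Log2 fold change ± SE (x axis) of the 10 genes (y axis), WD saline against ND saline with 3 livers each, under 3 ways of scaling the libraries, with filled points where the adjusted p is under 0.05. Mogat1, Gpam and Lpin3 stay above 0 and Lpin1 and Tm6sf2 below 0 in all 3, while Agpat2, Lpin2 and Dgat2 move to between -0.04 and -0.02 with total counts.

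AN1284 1 mg was compared with saline on the WD to ask what the lower dose did in WD-fed mice. Dgat2, Tm6sf2 and Lpin1 were higher and Mogat1 and Gpam were lower, so 5 of the 10 genes passed, 3 higher and 2 lower, where 22.9% of all tested genes passed, 10.3% higher and 12.6% lower. The livers did not overlap in 5 of the 10, beside 33.2% of all tested genes. This comparison shares the WD saline livers with that of the diet, so the values are set side by side and their likeness was not tested. With total-count scaling 2 of the 10 were higher and 5 lower, and of all genes 719 were higher and 4056 lower in place of 1520 and 1856. At this dose 10 of 10 hepatocyte markers rose, and 8 of 10 stellate cell and 7 of 7 cholangiocyte markers fell. At 5 mg the same lists had 7 higher, 6 lower and 5 lower. The part of these shifts in the results at either dose was not tested.

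Mogat1 had 80.3, 61.2, 117.0 and 127.8 normalized counts with AN1284 1 mg, all below the WD saline livers and all above the ND livers. It fell by 1.24 ± 0.32 on the log2 scale (adjusted p = 0.00828). Dgat2 had 11124, 13282, 15197 and 13611, all above the WD saline livers. Its log2 fold change of 0.59 ± 0.12 (adjusted p = 0.00173) passed in every alternative. Tm6sf2 had 596, 808, 708 and 655, again without overlap, and rose by 0.63 ± 0.15 on the log2 scale (adjusted p = 0.00535), in every alternative as well.

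Calls for Gpam and Lpin1 at this dose were less secure. Gpam had 4641, 6291, 7837 and 4334 normalized counts, all below WD saline, and fell by 1.05 ± 0.30 on the log2 scale (adjusted p = 0.018). It did not pass without WD saline replicate 1 (adjusted p = 0.0945) or without replicate 4 of the treated livers (0.0578). Lpin1 had 4817, 3860, 4541 and 8369, which overlapped WD saline at the lower end. Its log2 fold change of 0.89 ± 0.30 (adjusted p = 0.0435) did not pass with total-count scaling (0.106), with no filter on low values (0.0665), with these 2 groups fitted alone (0.0733), or without any of 5 of the 7 livers (adjusted p = 0.0542 to 0.177). Lpin3, at 96.8, 144.5, 152.9 and 125.6, lay below all WD saline livers with a log2 fold change of -0.43 ± 0.17 (adjusted p = 0.0711). Agpat2, Lpin2, Dgat1 and Mttp had log2 fold changes of 0.24, -0.17, 0.14 and -0.24 with adjusted p from 0.161 to 0.518. Scaling to total counts brought Lpin3 (-0.67), Lpin2 (-0.41) and Mttp (-0.48) past the threshold.

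Replicates 3 and 4 of WD AN1284 1 mg summed to 3017 and 4415 normalized counts over the adipocyte markers, 3001 and 4392 of it from Cfd, where all other livers summed to 22.4 to 1635.5. Of the 8 adipocyte markers, 4 had a value. In the same livers Agpat2 (7981 and 8436), Mogat1 (117.0 and 127.8), Dgat2 (15197 and 13611) and Dgat1 (537 and 481) had their 2 highest values of this group. The other members did not, and the share of all tested genes that did was not counted. With both livers left out, an alternative chosen after seeing the data, Mogat1 (-1.63), Dgat2 (0.47) and Tm6sf2 (0.65) still passed, and Gpam (adjusted p = 0.0566) and Lpin1 (0.262) did not.

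AN1284 5 mg was compared with saline on the WD in the same way. Lpin1 and Dgat2 rose, so 2 of the 10 genes passed, both higher, where 12.5% of all tested genes passed, 5.51% higher and 7.03% lower. The livers did not overlap in 7 of the 10, where 36% of all tested genes had no overlap. With total-count scaling 1 of the 10 was higher and 3 were lower, and of all genes 428 were higher and 2699 lower in place of 813 and 1036.

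Lpin1 had 6220, 9655 and 8095 normalized counts with AN1284 5 mg, all above WD saline and all below ND saline. Its log2 fold change was 1.50 ± 0.32 (adjusted p = 0.00578), and it passed in every alternative. The summed heat shock genes were 33317 to 37879 in these livers and 25156 to 31547 in WD saline, and their part in the Lpin1 difference was not tested. Dgat2 had 13211, 11594 and 13634, all above WD saline, with a log2 fold change of 0.55 ± 0.13 (adjusted p = 0.00969). With total-count scaling it was 0.32 (adjusted p = 0.0739).

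Mogat1 had 83.1, 127.5 and 125.5 normalized counts at 5 mg, all below WD saline. Its log2 fold change of -0.99 ± 0.34 did not pass (adjusted p = 0.0636), but it did with limma voom on the raw counts (0.008), with total-count scaling (0.0179) and with the 2 groups fitted alone (0.00985). Tm6sf2, at 519, 523 and 812, lay above WD saline with a difference of 0.45 ± 0.16 (adjusted p = 0.0815). Gpam, at 9237, 7517 and 8734, had a log2 fold change of -0.45 ± 0.32 (adjusted p = 0.405). The other 5 genes had log2 fold changes of -0.33 (Lpin3) to 0.29 (Agpat2 and Lpin2), with adjusted p from 0.238 to 0.941.

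**Figure D3:**
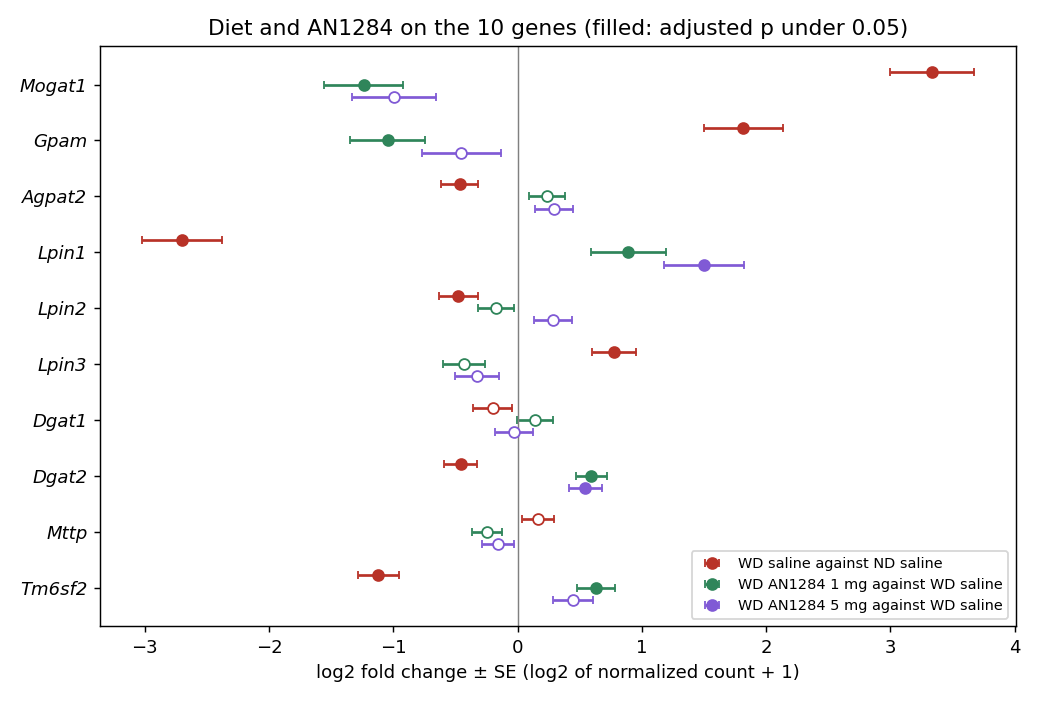
Log2 fold change ± SE (x axis) of the 10 genes (y axis) for WD saline against ND saline and for each AN1284 dose against saline on the WD (3 to 4 livers a group), with filled points where the adjusted p is under 0.05. Dgat2 is below 0 on the WD (-0.46) and above 0 with each dose (0.59 and 0.55), and Mttp and Dgat1 have open points throughout.

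The doses were also set against each other on the WD. None of the 10 genes passed in limma, where 0% of all tested genes passed. At an unadjusted p under 0.05 there were 776 genes (5.26%), with 1 of the 10 among them, and limma voom passed 0 genes. That gene was Lpin2, at 10101, 12136 and 11424 normalized counts with 5 mg and 7690, 8016, 9150 and 7802 with 1 mg, with a difference of 0.46 ± 0.14 (adjusted p = 0.58). It was the 1 gene of the 10 without overlap, beside 6.71% of all tested genes. Lpin1 differed by 0.61 ± 0.30 and Gpam by 0.59 ± 0.30, both higher with 5 mg and both with adjusted p = 0.974. Of the other genes, the differences ran from -0.19 ± 0.15 for Tm6sf2 to 0.25 ± 0.32 for Mogat1, which does not show that the doses act alike.

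Compared with ND saline, the treated WD livers still differed in 4 of the 10 genes at each dose, where 30.4% of all tested genes passed at 1 mg and 30.8% at 5 mg. Mogat1 remained higher by 2.1 ± 0.32 on the log2 scale at 1 mg (adjusted p = 0.00015) and by 2.34 ± 0.34 at 5 mg (0.000146). Lpin1 was lower, with log2 fold changes of -1.81 ± 0.30 (adjusted p = 0.000438) and -1.20 ± 0.32 (0.0114), the latter not passing without WD AN1284 5 mg replicate 1 (0.0546). Tm6sf2 was also lower, by -0.49 ± 0.15 (adjusted p = 0.0214) and -0.67 ± 0.16 (0.00515), the former not passing with total-count scaling (0.121) or without ND saline replicate 1 (0.0868), ND saline replicate 3 (0.109) or WD AN1284 1 mg replicate 1 (0.0641). The remaining calls were Lpin2 at 1 mg (-0.65 ± 0.14, adjusted p = 0.00285) and Gpam at 5 mg (1.37 ± 0.32, 0.0049). Dgat2 differed from ND saline by 0.14 ± 0.12 and 0.09 ± 0.13, and neither passed (adjusted p = 0.42 and 0.641). With total-count scaling 4 of the 10 were higher and 2 lower at 1 mg, and 3 higher and 2 lower at 5 mg, against 1 and 3, and 2 and 2.

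On the ND, AN1284 was compared with saline to see what it did without the WD. At 1 mg, Lpin1 and Lpin2 fell, 2 of the 10 genes, where 4.63% of all tested genes passed, 1.74% lower, and the livers did not overlap in 4 of the 10, beside 18% of all tested genes. Lpin1 had 5409, 3605 and 3512 normalized counts in these livers, all below ND saline, with a log2 fold change of -2.14 ± 0.32 (adjusted p = 0.00118). Lpin2 had 6511, 7034 and 7770, also without overlap, and fell by 0.85 ± 0.15 on the log2 scale (adjusted p = 0.0035). At 5 mg, Lpin2 and Agpat2 fell, 2 of the 10, where 10.2% of all tested genes passed, 3.89% lower, and 6 of the 10 did not overlap, beside 29.3% of all tested genes. Lpin2 had 7001, 8347 and 6986 at 5 mg, with a log2 fold change of -0.78 ± 0.15 (adjusted p = 0.00628). Agpat2, at 6710, 5460 and 5481, had a difference of -0.49 ± 0.15 (adjusted p = 0.0492) that did not pass with no filter (0.0582), upper-quartile scaling (0.0585), total-count scaling (0.0979) or limma voom (0.0599), nor without any of 5 of the 6 livers (0.0596 to 0.156). The counts over all genes were themselves unstable. At 1 mg, 427 were higher and 256 lower, but 170 and 105 without ND saline replicate 1, 268 and 120 without ND AN1284 1 mg replicate 3, 692 and 420 without ND saline replicate 2, 1417 and 138 with total-count scaling, and 23 and 57 with these 2 groups fitted alone. At 5 mg, 925 were higher and 574 lower, but 481 and 205 without ND saline replicate 1, 366 and 185 without ND saline replicate 3, 314 and 183 without ND AN1284 5 mg replicate 2, 320 and 196 without its replicate 3, and 448 and 416 with limma voom. Also at 5 mg, 5 of 10 macrophage, 4 of 7 endothelial and 2 of 7 lymphocyte markers rose, and at 1 mg 0 of each. Their part in the results was not tested.

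Near the threshold at 5 mg on the ND were Tm6sf2, at 631, 668 and 727 (-0.52 ± 0.16, adjusted p = 0.0501), and Lpin1, at 9536, 12044 and 6361 (-1.0 ± 0.32, adjusted p = 0.0571). Mogat1, Gpam, Dgat1, Dgat2 and Mttp did not pass at either dose on the ND, with adjusted p from 0.314 to 0.947. Lpin3 lay above ND saline in all ND livers given AN1284, with log2 fold changes of 0.46 ± 0.18 and 0.40 ± 0.18 that did not pass (adjusted p = 0.152 and 0.15). It passed at each dose with total-count scaling (0.0318 and 0.0444).

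Lpin1 and Lpin2, though not Lpin3, had their highest group means in ND saline. So did Agpat2 (8208), Dgat1 (472) and Tm6sf2 (974). For Lpin2 the ND saline range overlapped those of WD saline and WD AN1284 5 mg. Those 3 ND saline livers had other features as well. All 8 heat shock genes fell in ND AN1284 1 mg and in ND AN1284 5 mg against ND saline, and 7 of 8 did in WD saline. Of 19 clock genes, 2 were higher and 2 lower in ND AN1284 1 mg against ND saline. In ND AN1284 5 mg 5 were higher and 4 lower, and in WD saline 2 and 5. Beside these, 4.63% of all tested genes passed at 1 mg on the ND, 10.2% at 5 mg and 53% in WD saline. The shares of all tested genes that fell were 1.74%, 3.89% and 25%. Nr1d1, 1 of them, had 135, 402 and 464 normalized counts in ND saline and 1117 to 2676 in all other livers. Cry1, another, went the other way, with 592 to 980 in ND saline and 173 to 454 elsewhere. The ranges overlapped for Dbp (31.61 to 51.11 in ND saline, 39.15 to 1079 elsewhere) and Per1 (796 to 1180, and 264 to 917 elsewhere). The summed clock genes of ND saline, 17503 to 20120, lay within the range of the other livers. The part of these features in the differences of Lpin1, Lpin2 or any other gene from ND saline was not tested. Diet comparisons that do not use ND saline gave other values for Lpin1. Between WD and ND livers given 1 mg its log2 fold change was 0.33 ± 0.30 (adjusted p = 0.51), and between those given 5 mg it was -0.20 ± 0.32 (0.817).

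**Figure D4:**
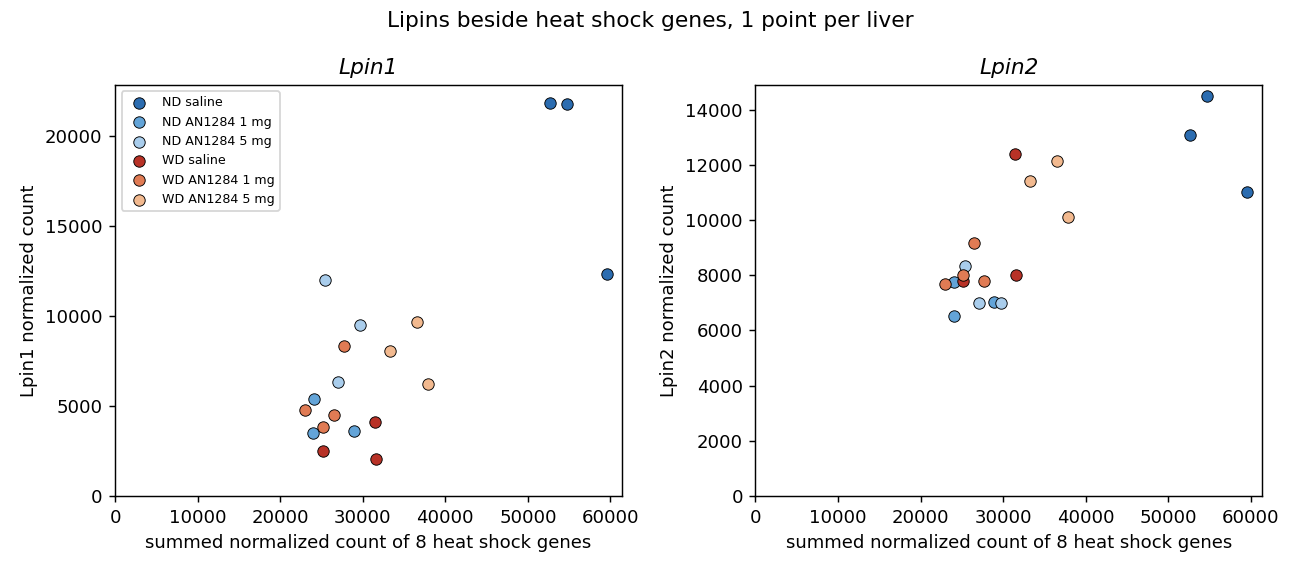
Normalized counts of Lpin1 and Lpin2 (y axes) against the summed normalized counts of 8 heat shock genes (x axes), 1 point for each of 19 livers, coloured by group. The 3 ND saline livers lie apart at 52695 to 59542 on the x axis, and the other 16 lie between 23013 and 37879.

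The diets were also compared between livers given the same dose. At 1 mg only Mogat1 passed, 1 of 10, where 13% of all tested genes passed, with a log2 fold change of 1.47 ± 0.32 (adjusted p = 0.00497). It did not pass with these groups fitted alone (0.0685). At 5 mg Mogat1 passed with 2.71 ± 0.34 (adjusted p = 0.00014), its ND livers lying at 16.0, 15.6 and 16.2 normalized counts, and Lpin2 with 0.59 ± 0.15 (0.0427), 2 of 10, where 3.07% of all tested genes passed. The Lpin2 call was lost without any single liver of the 2 groups (adjusted p = 0.0564 to 0.18). Gpam had log2 fold changes of 0.49 ± 0.30 and 0.88 ± 0.32 (adjusted p = 0.304 and 0.16), Dgat2 of 0.16 and -0.08, and Tm6sf2 of -0.25 and -0.16, none of which passed.

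Whether AN1284 acted differently on the 2 diets was tested as an interaction, the effect on the WD minus that on the ND. At 1 mg 7 of the 10 genes passed, where 20.6% of all tested genes passed, and at 5 mg 5 of 10, where 20.2% did. Lpin1 had the largest values of the 10, 3.03 ± 0.44 at 1 mg (adjusted p = 0.000222) and 2.50 ± 0.46 at 5 mg (0.00205). Tm6sf2 passed at each dose with 0.87 ± 0.22 (adjusted p = 0.0101) and 0.96 ± 0.23 (0.00854), and Mogat1 at 1 mg with -1.86 ± 0.46 (0.009). Both saline groups enter these values, with the heat shock, Nr1d1 and Cry1 levels of ND saline given above. With total-count scaling the split was 1 higher and 4 lower at 1 mg in place of 4 and 3, and 3 and 3 at 5 mg in place of 4 and 1.

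Ratios between genes within a liver do not depend on how the libraries were scaled, apart from the 1 added to each normalized count. The log2 ratio of Dgat2 to Dgat1 was 4.62, 4.77 and 4.62 in ND saline, 4.62, 4.33 and 4.28 in WD saline, 4.94, 4.87, 4.82 and 4.82 with WD AN1284 1 mg and 5.14, 4.97 and 4.84 with WD AN1284 5 mg. WD saline lay lowest, but its highest liver, at 4.615, was just below the lowest ND saline liver, at 4.618. Its difference from ND saline was -0.26 (exact permutation test, two-sided p = 0.1), and the doses differed from it by 0.45 (exact p = 0.0571) and 0.57 (exact p = 0.1). The log2 ratio of Lpin1 to Lpin2 was 0.17, 0.59 and 0.74 in ND saline, -1.62, -1.96 and -1.59 in WD saline, -0.67, -1.05, -1.01 and 0.10 with 1 mg and -0.70, -0.33 and -0.50 with 5 mg. None of the other 3 groups overlapped with WD saline. The differences were -2.22, 1.06 and 1.21, with exact p of 0.1, 0.0571 and 0.1.

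Mttp was also set against Apob, its acceptor. Apob had 117003, 162415 and 114122 normalized counts in ND saline and 269674, 178795 and 217098 in WD saline, and rose by 0.76 ± 0.20 on the log2 scale (limma adjusted p = 0.00408). The log2 ratio of Mttp to Apob was -3.80, -3.89 and -3.60 in ND saline and -4.80, -4.07 and -4.19 in WD saline, without overlap, a difference of -0.59 (exact permutation p = 0.1). With AN1284 on the WD it differed from WD saline by 0.05 at 1 mg (exact p = 0.914) and 0.02 at 5 mg (exact p = 1). The log2 ratio of Mogat1 to Gpam differed by 1.52 on the WD (exact p = 0.2) and by -0.19 (exact p = 0.686) and -0.54 (exact p = 0.3) with the doses, with overlap throughout. Over the 12 ratio tests no Benjamini-Hochberg adjusted p was under 0.171. With 3 against 3 livers an exact test cannot go below 0.1, and with 4 against 3 not below 0.0571.

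**Figure D5:**
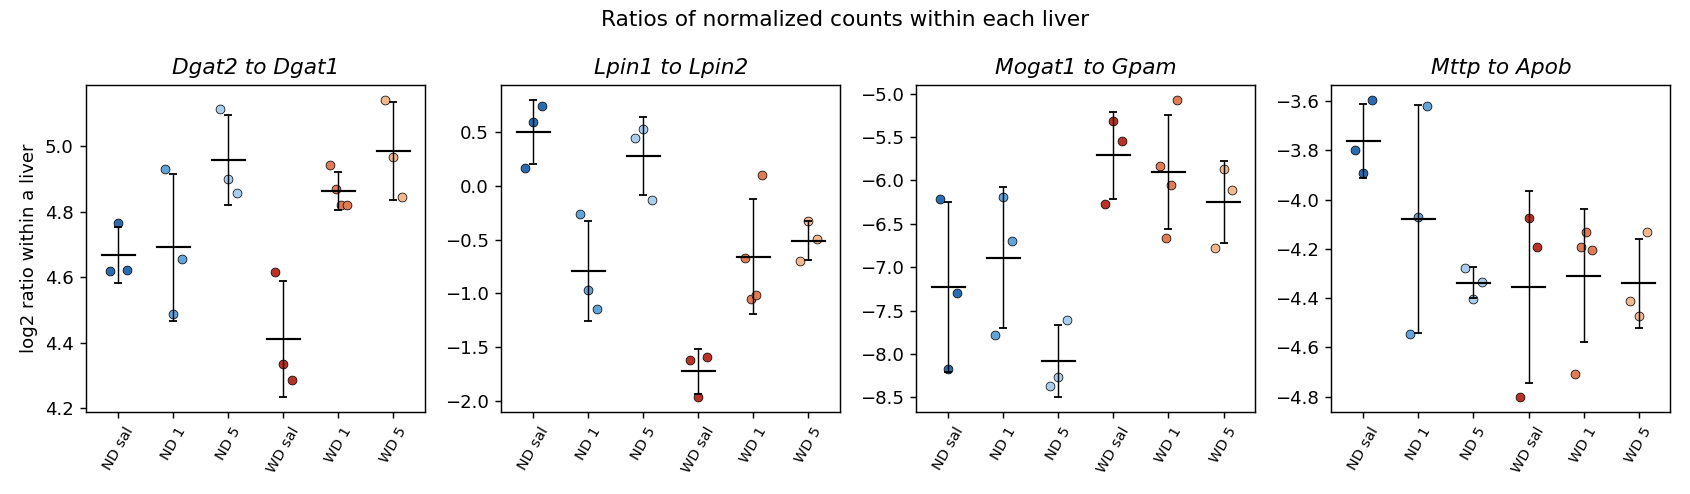
Log2 ratio of normalized counts within each liver (y axes) for 4 pairs of genes by group (x axes), 1 point per liver with the group mean and SD. For Dgat2 to Dgat1 and for Lpin1 to Lpin2 the WD saline livers lie below those of ND saline and of each WD AN1284 dose.

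Related genes were read from lists. Of 12 tested genes of the glycerol phosphate and acylation steps, 5 rose and 0 fell on the WD, with a list median of 0.30 beside 0.01 for all genes. Gpat3, a glycerol-3-phosphate acyltransferase of the endoplasmic reticulum, had a log2 fold change of 2.35 ± 0.24 (adjusted p = 6.12e-07), Agpat4 of 1.87 ± 0.37 (0.000456), Agpat3 of 0.47 ± 0.10 (0.00106) and the glycerol kinase Gk of 0.64 ± 0.14 (0.00119). Each dose on the WD raised 2 and lowered 1. Gpat4, the main microsomal isoform, rose by 0.68 ± 0.13 on the log2 scale at 1 mg (adjusted p = 0.00112) and by 0.54 ± 0.14 at 5 mg (0.0174), and Gpat3 fell by 0.95 ± 0.24 at 5 mg (0.0135). With total-count scaling the list had 9 higher and 0 lower on the WD, 2 and 7 at 1 mg and 0 and 4 at 5 mg. This list and those that follow stand beside the 28.1% of all tested genes that were higher and the 25% that were lower on the WD. Their counts with AN1284 on the WD stand beside 10.3% higher and 12.6% lower at 1 mg, and 5.51% and 7.03% at 5 mg.

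Among 14 genes of the branches that draw on phosphatidate or diacylglycerol, 6 rose and 3 fell on the WD. Dgka, which turns diacylglycerol back into phosphatidate, fell by 1.15 ± 0.17 on the log2 scale (adjusted p = 2.8e-05) and Pemt, which makes phosphatidylcholine by methylation, fell by 0.98 ± 0.18 (0.000195). Dgkz rose by 0.58 ± 0.12 and the lipid phosphatase gene Plpp2 by 0.78 ± 0.17. With AN1284, Dgka rose by 0.86 ± 0.16 at 1 mg (adjusted p = 0.000682) and 0.63 ± 0.17 at 5 mg (0.019), and Plpp2 fell by 0.58 ± 0.16 (0.0128) and 0.65 ± 0.17 (0.0156). Of 4 genes that control the lipins, Mtor, whose kinase phosphorylates the Lpin1 protein, rose by 1.13 ± 0.10 on the WD (adjusted p = 1.72e-07) and fell by 0.46 ± 0.10 (0.00213) and 0.50 ± 0.10 (0.00359) with the doses. Ppargc1a, a coactivator that induces Lpin1 in mouse liver, fell by 1.12 ± 0.25 on the WD (adjusted p = 0.00102). Ctdnep1 and Cnep1r1, the lipin phosphatase and its partner, had differences of -0.07 and 0.04 on the WD and did not pass. With total-count scaling the 14 branch genes had 9 higher and 2 lower on the WD, and the 4 lipin control genes 3 and 1.

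Of 23 partners in VLDL assembly and export, 5 rose and 8 fell on the WD, 3 rose and 2 fell with 1 mg, and 3 rose and 1 fell with 5 mg. With total-count scaling more were higher than lower on the WD, 11 and 3, and fewer at 1 mg, 3 and 9, while 5 mg had 2 and 1. The carboxylesterases Ces3b and Ces3a, lipases of the endoplasmic reticulum, fell by 3.28 ± 0.26 (adjusted p = 5.28e-08) and 1.45 ± 0.15 (5.06e-07) on the log2 scale on the WD. Ces3b was higher by 2.18 ± 0.24 at 1 mg (adjusted p = 8.47e-06) and by 1.81 ± 0.26 at 5 mg (0.000258), and Ces3a by 0.78 ± 0.14 at 1 mg (0.000468). Aadac, another lipase of that membrane, fell by 1.02 ± 0.18 on the WD (adjusted p = 0.000124), and Sort1, a sorting receptor for apolipoprotein B, rose by 0.69 ± 0.13 (0.000334) and fell by 0.73 ± 0.13 at 5 mg (0.0014).

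Of 13 transcription factors reported to control these genes, 3 rose and 8 fell on the WD, and 4 rose at 1 mg and 3 at 5 mg with 0 lower. With total-count scaling 3 were higher and 2 lower on the WD, 3 and 1 at 1 mg, and 2 and 2 at 5 mg. Hnf4a, a regulator of Mttp and many hepatocyte genes, fell by 0.90 ± 0.11 (adjusted p = 2.83e-06) on the log2 scale on the WD. At 1 mg it was higher by 0.66 ± 0.10 (adjusted p = 0.000103) and at 5 mg by 0.55 ± 0.11 (0.00214). It is also in the hepatocyte marker list. Mlxipl, which encodes the carbohydrate-responsive factor ChREBP, fell by 1.59 ± 0.36 (adjusted p = 0.00153), Creb3l3 fell by 0.57 ± 0.12 (0.000929) and Ppara rose by 1.07 ± 0.16 (2.8e-05). Rxra rose by 0.60 ± 0.09 at 1 mg (adjusted p = 0.000118) and 0.52 ± 0.10 at 5 mg (0.00166).

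The genes most like each were ranked by Pearson r and are given for 9 of the 10, over the 19 livers on the log2 scale, among 10035 genes with a mean normalized count of at least 100. The points share diets and groups, so r is a description. Mogat1 was closest to Cidea (r = 0.982), a lipid droplet protein, then Osbpl3 (0.954) and Apoa4 (0.951). With group means removed r with Cidea was 0.842. Gpam was closest to Acaca (0.937), which makes malonyl-CoA for fatty acid synthesis, and with group means removed r was 0.812. Tm6sf2 was closest to Mrpl49 (0.953), Galt (0.935) and Arl6ip4 (0.925). Dgat2 was closest to Bphl (0.896), Lpin1 to Slc38a2 (0.849), an amino acid transporter, Agpat2 to Ormdl3 (0.857), Dgat1 to Serhl (0.861) and Lpin3 to Nat8f4 (0.839). Lpin2 was closest to the heat shock gene Dnajb1 (0.833) and to Dnajb4 (0.832). Ip6k2 came next (0.817). Once group means were removed, r with Lpin2 was 0.022 for Dnajb1, 0.397 for Dnajb4 and 0.656 for Ip6k2. Between the 10 genes themselves, r ran from -0.782 for Gpam and Tm6sf2 to 0.721 for Mogat1 and Gpam, the latter -0.145 with group means removed.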

How the data were processed

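Liver RNA of 19 mice in 6 groups of 3 or 4 was compared. Reads were trimmed with cutadapt 1.18, aligned to GRCm38 with TopHat2 2.1.1 and counted with HTSeq 0.6.0, per the submitters' processing notes. The deposited table holds the authors' raw read counts per gene and the counts they normalized by the size factors of DESeq2 1.22.1. It also holds the authors' comparisons between groups (fold changes and p-values), which were not used. Of 54838 genes, 6252 carry a question mark in every raw column and 34405 in every normalized column, the latter with raw totals of at most 9. Count models were not run for that reason, though limma voom was run on the raw counts of the tested genes as an alternative. A normalized value was present for 20433 genes.

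Genes reaching 10 normalized counts in at least 3 libraries were tested with limma 3.58.1 (trend and robust variance, R 4.3.3) on log2(normalized count + 1), which understates changes of low genes. All 6 groups shared 1 fit, and the script was tested on simulated data. Ratios within livers were tested by exact permutation over all splits of the livers, in Python 3.11.15. Counts between 23326800 and 32596067 per library set the precision of low genes such as Mogat1, and intervals cover only the spread between livers. Alternatives were a pseudocount of 5, no filter, total-count or upper-quartile scaling, limma voom on raw counts, a replicate block, fits of the compared groups alone, and each liver left out. The members and gene lists were chosen with earlier results of these data known. Named genes were the 10 members, up to 4 genes per list by smallest p on the WD and up to 2 per dose, and the 3 genes of highest r with each member, of which that for Mttp is not reported here. Apob, the adipocyte gene Cfd and the clock genes Nr1d1, Cry1, Dbp and Per1 were named beside results after their values were seen. Same-numbered livers did not deviate together (r from -0.169 to 0.229 over 30 pairs, 6 above 0.1), so the numbers do not pair them.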

Additional observations from a re-analysis of the deposited data

Results flagged for a closer look

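The log2 ratio of Mttp to Apob was -4.71 in replicate 1 of WD AN1284 1 mg, apart from -4.19, -4.13 and -4.20 in the other 3 livers of that group. Chance sets about 1 in 20 groups apart in this way. Only this group, the 1 with 4 livers, was open to this flag, and the groups of 3 livers were not. The 10 genes and the ratios were all searched in it, so 1 such gap is not unusual, and whether it exceeds chance was not tested.

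By the interaction in the limma fit, the effect of AN1284 differed between the diets for 7 genes at 1 mg and 5 at 5 mg. Of all tested genes, 20.6% passed at 1 mg and 20.2% at 5 mg. The ND saline livers, which stood apart in the heat shock genes, enter every value. At 1 mg the differences on the log2 scale were -1.86 for Mogat1, -1.33 for Gpam, 3.03 for Lpin1, 0.68 for Lpin2, -0.89 for Lpin3, 0.62 for Dgat2 and 0.87 for Tm6sf2. At 5 mg they were 0.78 for Agpat2, 2.50 for Lpin1, 1.07 for Lpin2, -0.73 for Lpin3 and 0.96 for Tm6sf2. The calls for Lpin1 at each dose, for Lpin2 and Tm6sf2 at 5 mg and for Mogat1 and Lpin3 at 1 mg held in every alternative run. With total-count scaling, which shifted the median interaction of all genes to -0.41 at 1 mg and -0.39 at 5 mg, Lpin2, Dgat2 and Tm6sf2 at 1 mg and Agpat2 at 5 mg did not pass. Gpam at 1 mg (adjusted p = 0.0398) and Lpin3 at 5 mg (0.04995) did not pass with no filter (0.0617 and 0.0679).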

How the results depend on the processing

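Of 174 counts of the 10 genes under an alternative, 154 stayed within 1.5 times the count reported, and of 410 log2 fold changes in the diet comparison and both doses on the WD, 365 kept their direction and their side of the threshold, 15 gained the call, 23 lost it and 7 changed sign. Of 88 ratio differences, judged by sign alone and not by a threshold, 82 kept their direction and 6 changed sign. With a replicate block, which in effect drops replicate 4 of WD AN1284 1 mg because no other group has that number, 3 genes passed at 1 mg on the WD instead of 5, Gpam (adjusted p = 0.0828) and Lpin1 (0.175) losing the call. Same-numbered livers share only a number. Leaving out replicate 4 of WD AN1284 1 mg alone also gave 3 genes. Leaving livers 3 and 4 of that group out also gave 3. With total-count scaling 4 genes passed at 5 mg on the WD instead of 2. At 5 mg on the ND, no filter, upper-quartile scaling and limma voom each gave 1 gene instead of 2. Fitted alone, the 1 mg groups of the 2 diets gave 0 instead of 1. Leaving out 1 liver at a time gave 3 to 5 genes at 1 mg on the WD (3 without WD saline replicate 1 or WD AN1284 1 mg replicate 4), 1 to 2 at 5 mg on the ND (1 without ND saline replicate 3 or ND AN1284 5 mg replicate 2 or 3) and 1 to 1 between the diets at 5 mg, where 2 were reported. It gave 4 to 7 for the interaction at 1 mg (4 without ND AN1284 1 mg replicate 1) and 3 to 5 at 5 mg (3 without WD AN1284 5 mg replicate 3). Dgat1 changed sign with total-count scaling on the WD (0.23) and at 1 mg (-0.092), with livers 3 and 4 left out at 1 mg (-0.021), and with 1 liver left out at 5 mg (-0.144 to 0.0345). Lpin2 at 1 mg ran from -0.29 to 0.044 with 1 liver left out, being above 0 without WD saline replicate 3. The ratio of Mogat1 to Gpam at 1 mg ran from -0.473 to 0.0599, and that of Mttp to Apob from -0.18 to 0.19 at 1 mg and -0.21 to 0.16 at 5 mg. The cause was not tested in any case other than the dropped liver. The 3 to 4 livers per group limit what small differences can show.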
